A study of Danio rerio with 32 samples.

Results

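The hatching gland is a set of secretory cells that arise at the anterior edge of the prechordal plate and spread over the pericardium and yolk of the zebrafish embryo. Its cells fill with granules of hatching enzyme, a metalloprotease of the astacin family, and release them to digest the chorion. Genes of the gland were chosen by name, from 7 zebrafish symbols and their RefSeq synonyms. These led to 8 genes in RefSeq, of which 5 have a row among the 22686 genes of the table: the hatching enzyme he1.1, the cathepsin L genes ctslb and ctsl.1, and the transcription factors klf17 and xbp1. The hatching enzymes he1.2 and he1.3 (the gene also called he2) and the tetraspanin cd63 were not analysed here. The symbol ctsl.1 matched 2 genes: RefSeq gives the hatching gland name hgg1 to ctslb on chromosome 12, whereas ctsl.1 on chromosome 17 is a separate gene without that synonym, and the sources used here do not say where it is expressed.

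Retene, an alkylated polycyclic aromatic hydrocarbon and a ligand of the aryl hydrocarbon receptor (AHR), was given in the water from 6 hpf. RNA came from whole wild type Tropical 5D larvae at 48 hpf, in 32 pools of 9 larvae, with 4 pools for the DMSO control and 4 for each retene concentration: 0.205, 0.512 or 1.28 µM at the low end and 3.2, 8, 20 or 50 µM above it. Chorions had been removed with enzyme at 4 hpf in all groups, so that no larva in any group had a chorion to digest, and only larvae of normal appearance were pooled. Reads on genes numbered 7720701 to 8656870 per pool. The labels do not say whether pools of one group came from separate clutches or plates, so p-values measure the spread between these pools. In whole larvae, fewer gland cells and less RNA per cell cannot be told apart.

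The exposure itself was visible in cyp1a, a monooxygenase gene induced through AHR, whose mean normalized count (reads divided by the size factor of the pool) was 26.1 in the control and 19827 at 50 µM. Its Log2FC at 50 µM was 7.57. Among 45 markers of 7 other cell types, 0 were higher and 3 were lower at 50 µM by limma, where 1.45% and 1.02% of all genes were. Of the 45, 7 had an unadjusted p under 0.05, about the share over all genes (15.2%). The 3 called lower were krt4, a keratin of the periderm (Log2FC -0.33), ca2, a carbonic anhydrase of ionocytes (-0.26), and mpx, the myeloperoxidase of neutrophils (-0.47). The summed level of 6 macrophage and neutrophil markers was 326 to 478 in the control pools and 267 to 290.2 at 50 µM. In that sum mpx alone had a mean of 217 in the control and 132 at 50 µM, and 1 of the 6, spi1b, was higher (Log2FC 0.09, not called). The sum of 9 periderm and epidermis markers was 116498 to 138047 in the control and 105127 to 114860 at 50 µM, with krt4 at means of 89861 and 71555. Sums of the other lists overlapped with the control. At 50 µM 2 of the 9 periderm and epidermis markers and 2 of 6 ionocyte markers had a Log2FC above 0, none of them called. Whether cell numbers changed was not tested, nor was the part of such a change in the values of the 5 genes chosen by name.

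The 5 genes did not pass the same tests. The cathepsin gene ctsl.1, which is here by its name and not by a gland synonym, rose at 20 and 50 µM. he1.1 rose with concentration as a trend but passed no single comparison. After adjustment, ctslb, klf17 and xbp1 passed no test of concentration. Log2FC values here are differences of the deposited log2 values, which understate the change of genes with few reads.

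he1.1 encodes the hatching enzyme itself. Its normalized counts in the 4 control pools were 3479, 2951, 2654 and 3217. At 20 µM they were 4984, 3976, 4294 and 3532, and at 50 µM 3846, 4314, 4124 and 5435. All 4 pools at each of these concentrations lay above all 4 control pools, which held for 3.79% of all genes at 20 µM and 4.13% at 50 µM. Group means were 3075 ± 354 (SD, n = 4) in the control, 4197 ± 611 at 20 µM and 4430 ± 697 at 50 µM, or 36.5% and 44.0% above the control.

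The lower concentrations gave no steady order for he1.1. Its pools were at 4265, 2984, 4019 and 3612 at 0.205 µM, at 2963, 3428, 2395 and 3041 at 0.512 µM, and at 4177, 3949, 3874 and 3270 at 1.28 µM. The mean at 0.512 µM, 2957, was below that of the control, whereas the means on either side of it were 3720 and 3818. At 3.2 µM the pools were at 3517, 4623, 4941 and 3229 (mean 4078), and at 8 µM at 3908, 3779, 4976 and 2616 (mean 3820). At 8 µM 1 pool thus lay below all control pools and 3 above all of them. Pools overlapped between every pair of neighbors in the order of the 8 means.

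At 50 µM the Log2FC of he1.1 was 0.51 (SE 0.15, 95% interval 0.21 to 0.81) with an adjusted p-value of 0.058, and at 20 µM it was 0.43 (SE 0.15, adjusted p-value 0.23). Neither passed the threshold of 0.05, and this held in all 19 alternative settings and left-out pools at each concentration, all of them limma fits. As a trend over the rank of the concentration, he1.1 rose by 0.065 per step (SE 0.017, adjusted p-value 0.0135). The slope was 0.063 without the 50 µM pools, where it no longer passed (adjusted p-value 0.122), and 0.060 without those at 20 and 50 µM (0.377). Over all alternatives of this trend the adjusted p-value ran from 0.0022 to 0.377.

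**Figure D1:**
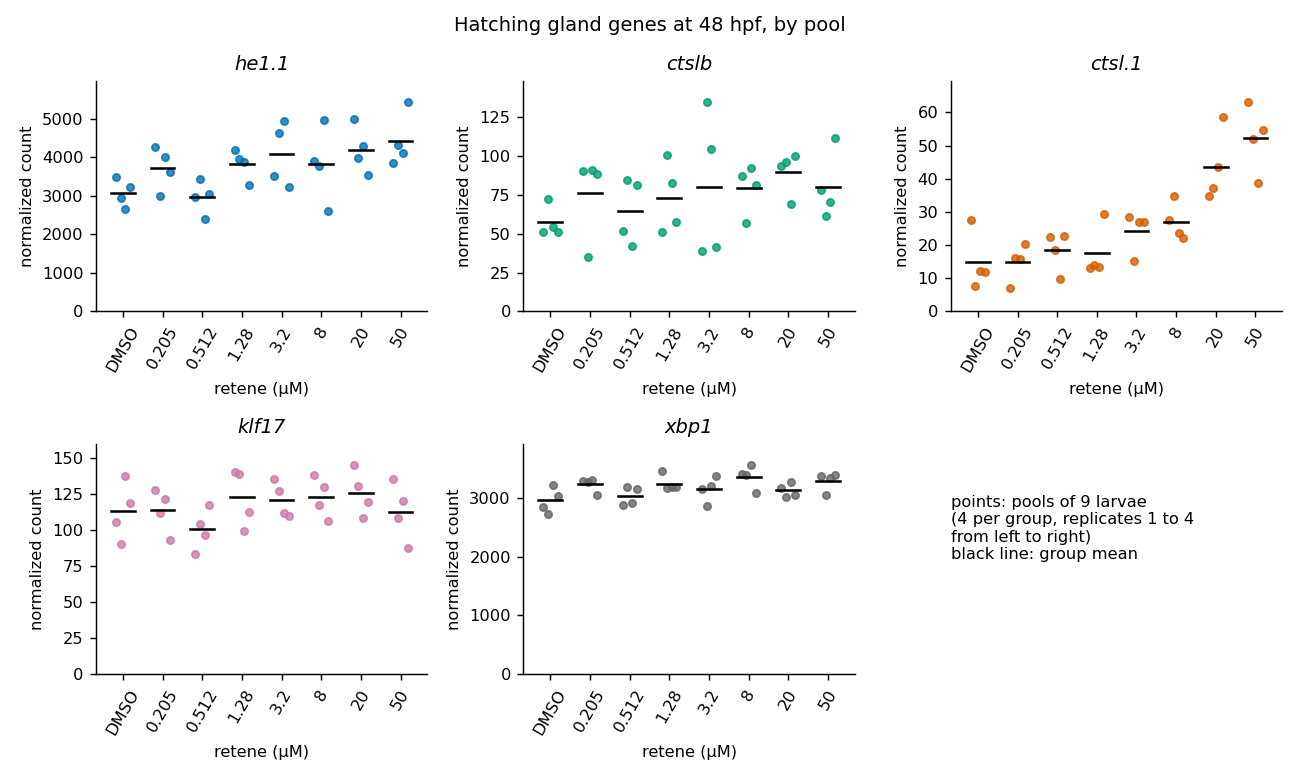
Normalized counts (y axis, from 0) of the 5 genes chosen by name against retene concentration in µM (x axis, evenly spaced). Among them, ctsl.1 has no gland synonym. Points are pools of 9 larvae, with replicates 1 to 4 from left to right, and black lines are group means: ctsl.1 climbs from a mean of 14.8 in the control to 52.2 at 50 µM, he1.1 from 3075 to 4430, and klf17 stays between means of 100.3 and 126.

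ctsl.1 encodes a lysosomal cysteine protease of the cathepsin L type and had few reads, 7 to 63 per pool. Its normalized counts in the control pools were 27.6, 7.62, 12.2 and 11.8. At 20 µM they were 34.8, 37.2, 43.6 and 58.6, and at 50 µM 63.1, 52.1, 38.7 and 54.7. Every pool at 20 and 50 µM lay above every control pool, as for 3.79% of all genes at 20 µM and 4.13% at 50 µM. The 50 µM pools also lay above every pool at 0.205 to 8 µM, for which no share over all genes was computed.

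Below 20 µM the pools of ctsl.1 overlapped with the control. They were at 7.03, 16.1, 15.7 and 20.4 at 0.205 µM, at 22.4, 18.6, 9.83 and 22.8 at 0.512 µM, and at 13.1, 14, 13.5 and 29.4 at 1.28 µM. At 3.2 µM the pools were at 28.4, 15.2, 26.9 and 27, 1 of them above all control pools, and at 8 µM the pools were at 27.6, 34.8, 23.6 and 22. In order of rising concentration, the control first, the group means were 14.8, 14.8, 18.4, 17.5, 24.3, 27, 43.6 and 52.2, with SDs of 8.77 in the control, 10.7 at 20 µM and 10.1 at 50 µM (n = 4 each). Pools at 20 and 50 µM overlapped. The ratio of means to the control was 2.94 at 20 µM and 3.52 at 50 µM.

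ctsl.1 rose at 20 µM by a Log2FC of 0.53 (SE 0.10, adjusted p-value 0.0039) and at 50 µM by 0.64 (SE 0.10, adjusted p-value 9.9e-05). At 8 µM its Log2FC was 0.27 (adjusted p-value 0.31). Both calls held in each of 11 alternative settings and with each of the 8 pools left out in turn. On the scale of log2(normalized count + 0.5) the differences were 1.65 and 1.91. The trend was 0.093 per step (SE 0.011, adjusted p-value 2.9e-07), the gene's rank being 53 among all genes, and without the pools at 20 and 50 µM it was 0.057 (adjusted p-value 0.112), the highest adjusted p-value among its alternatives, which began at 1.9e-08.

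ctslb, the cathepsin L gene with the synonym hgg1, had control pools at 51.3, 72.4, 54.5 and 51.3 normalized counts. At 20 µM its pools were at 93.4, 96.0, 69.3 and 99.9, and at 50 µM at 78.2, 61.7, 70.5 and 111. The lowest pool at 20 µM was below the highest control pool, so that the groups overlapped. At 3.2 µM the pools fell apart into 39.1, 135, 104 and 41.5. The largest Log2FC was 0.32 at 20 µM (SE 0.16, 95% interval 0.003 to 0.65, adjusted p-value 0.45), and at 50 µM it was 0.23 (SE 0.16, adjusted p-value 0.52).

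klf17, a zinc finger factor needed for the gland in zebrafish, had control pools at 105, 90.5, 137 and 118. At 50 µM its pools were at 135, 108, 120.1 and 87.1, a range that overlapped that of the control. Its Log2FC was between -0.10 and 0.10 at all 7 concentrations. The 95% interval at 50 µM was -0.18 to 0.17.

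xbp1, the factor that raises secretory capacity in the unfolded protein response and is strongly expressed in gland cells, had control pools at 2846, 2733, 3224 and 3035. At 8 µM its pools were at 3403, 3400, 3569 and 3093, and at 50 µM at 3382, 3056, 3342 and 3388. At both concentrations 3 of 4 pools lay above all control pools, and the same held at 0.205 µM, the lowest concentration. At 1.28, 3.2 and 20 µM 1 pool did, and at 0.512 µM 0 did. The share of all genes with such pools was not computed. The Log2FC was 0.18 at 8 µM (SE 0.06, adjusted p-value 0.22) and 0.15 at 50 µM (SE 0.06, adjusted p-value 0.19). xbp1 is expressed in many tissues, so a whole-larva value is not a value of the gland.

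Counted together, 1 of the 5 genes was called at 20 µM, where 0.586% of all genes were called and 0.388% were higher. At 50 µM 1 of 5 was called, where 2.48% of all genes were called and 1.45% were higher. Both calls were of ctsl.1, which has no gland synonym, and he1.1, ctslb, klf17 and xbp1 were called at neither. At each of the 5 concentrations from 0.205 to 8 µM limma called 0 of 5, against 0%, 0%, 0.0838%, 0.0838% and 0.344% of all genes in rising order. At an unadjusted p under 0.05 the counts in the same order were 1, 0, 2, 2 and 2 of 5, and 7.44%, 6.32%, 13%, 9.72% and 9.94% of all genes passed. At 20 µM 3 of 5 passed that threshold (he1.1, ctsl.1 and ctslb), beside 11% of all genes. At 50 µM 3 of 5 did (he1.1, ctsl.1 and xbp1), beside 15.2%. By the trend 2 of 5 were called, he1.1 and ctsl.1, both higher, against 4.95% of all genes and 2.61% higher. By the F test over the 8 groups 1 of 5 was called, ctsl.1, against 1.86%. The median Log2FC of the 5 genes was 0.32 at 20 µM and 0.23 at 50 µM, beside -0.002 and 0.003 over all genes.

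**Figure D2:**
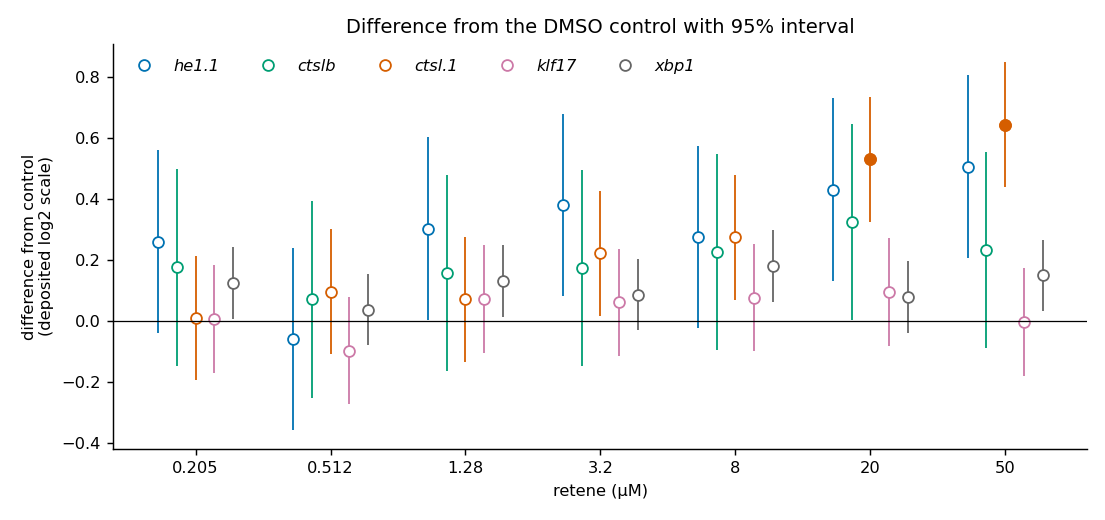
Difference from the DMSO control on the deposited log2 scale (y axis) at each retene concentration in µM (x axis), with 95% intervals from limma, 5 genes side by side. Filled circles mark an adjusted p-value under 0.05, which only ctsl.1 at 20 µM (0.53) and 50 µM (0.64) reached in these 35 comparisons; open circles are the others.

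Pools of one group differed widely for he1.1 and ctslb, and less so for ctsl.1. The residual SD of he1.1, 0.24 on the log2 scale, was larger than that of 97.0% of all genes, and that of ctslb, 0.25, larger than that of 97.6%. Among the 1000 genes nearest in mean level the shares were 97.7% and 95.9%. That of ctsl.1, 0.15, exceeded 81.4% of all genes and 74.2% of the 1000 nearest, and that of klf17, 0.13, exceeded 62.2% and 66.7%. The residual SD of xbp1, 0.075, was larger than that of 3.69% of all genes and of 14.5% of the 1000 nearest. Transcript lengths were not used here, so levels are not ordered between genes.

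he1.1 and ctslb varied together between pools of the same group. With group means removed, Pearson's r over the 32 pools was 0.56 and Spearman's rho 0.58 (permutation p = 0.0010 and 0.00064, 0.0105 and 0.0064 after Benjamini-Hochberg adjustment over 10 pairs of genes). Pools were permuted freely across groups although group means had been removed, which tends to make these permutation p-values too small. Without the 2 pools farthest from the median of he1.1, r was 0.64, and without control replicate 2, 8 µM replicate 4 and 50 µM replicate 2 it was 0.68. The other 9 pairs did not pass. Among them, klf17 and xbp1 had an r of 0.44 and a rho of 0.40 (permutation p = 0.0112 and 0.0243, adjusted 0.056 and 0.12), with an r of 0.46 without the 2 pools farthest from the median of klf17 and 0.31 without control replicate 2, 8 µM replicate 4 and 50 µM replicate 2. he1.1 and ctsl.1, the 2 genes with a trend, had an r of -0.11 and a rho of -0.17 between pools of a group (permutation p = 0.56 and 0.36, adjusted 0.70 and 0.52; r = -0.16 without the 2 farthest pools).

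The genes whose pattern over the 32 pools was most like the mean of he1.1, ctslb and ctsl.1, with group means removed, are given as a description. Of the 15 closest, the first were zgc:174153 (r = 0.84), si:dkey-26g8.5 (0.78), aox5 (0.77), the chemokine gene ccl25a (0.75) and si:dkey-269i1.4 (0.75). The other 10, with an r of 0.67 to 0.73, were GeneID.558896, scn4bb, wu:fb36g12, LOC100148750, tpi1a, LOC108190346, LOC108183407, GeneID.100317818, oprd1a and LOC110440052. The mean level was under 10 normalized counts for ccl25a, GeneID.558896, scn4bb, LOC100148750, LOC108190346, LOC108183407 and LOC110440052. The reference mean itself had an r of 0.78 with he1.1, 0.72 with ctslb and 0.36 with ctsl.1. Against he1.1 alone, a reference chosen after the values were seen, aox5 had an r of 0.95 and si:dkey-269i1.4 an r of 0.88. Of the 10 genes most like he1.1, 6 lie in the run of chromosome 12 that holds ctslb, where 10 genes besides ctslb were measured. The ends of that run were set at ctslb.4 and zgc:174153, both among the 6, after the values were seen. The count is therefore a description and no test. For ctsl.1 or ctslb alone as the reference, 0 of the 10 closest genes lie there.

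In the GRCz12tu RefSeq annotation the spans of he1.1, he1.2 and he1.3 lie within the span of aox5, an aldehyde oxidase gene known from xanthophores. The authors aligned to another build, GRCz11, and the strand of the libraries is not given in the sources used here. Spans do not show whether exons overlap, and the paper counted with HTSeq at default settings. Whether reads of these genes were told apart was not tested, and the values of he1.1 and aox5 are uncertain to that extent. aox5 had 3227 to 7011 normalized counts per pool and a Log2FC of 0.32 at 50 µM (SE 0.13, adjusted p-value 0.22). Its r with other xanthophore genes, group means removed, was 0.20 for gch2, 0.19 for xdh, 0.09 for scarb1, -0.05 for pax7a, -0.10 for pax7b, -0.21 for slc2a15b and -0.28 for csf1ra, beside 0.95 for he1.1. How far shared reads set that last value was not tested.

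**Figure D3:**
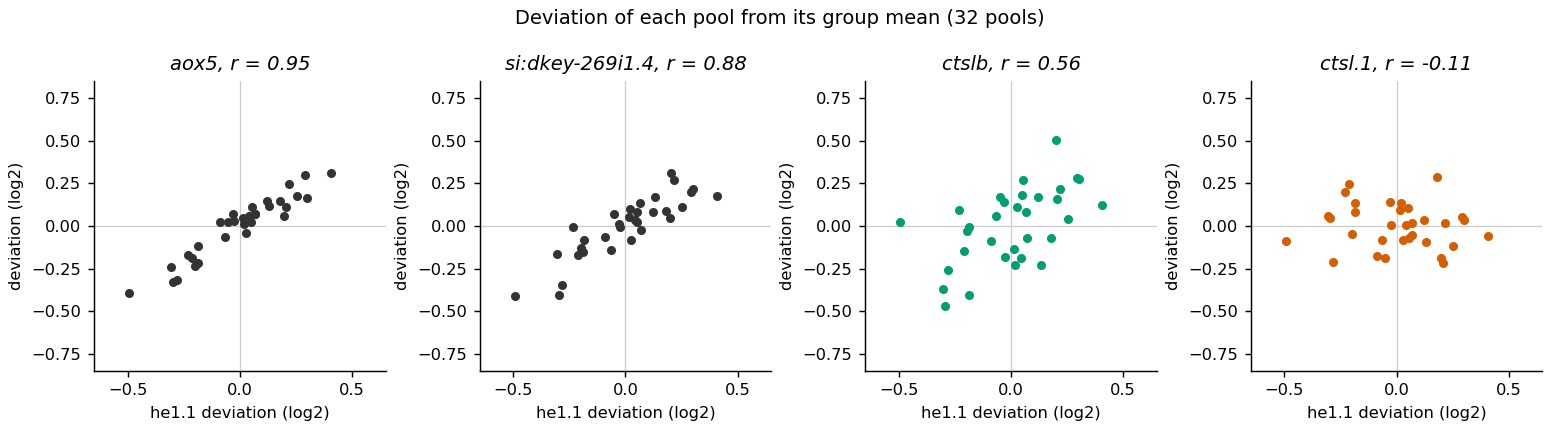
Deviation of each of 32 pools from its group mean on the log2 scale, for aox5, si:dkey-269i1.4, ctslb and ctsl.1 (y axes) against he1.1 (x axis); each point is a pool. Pools high in he1.1 were high in aox5 (r = 0.95), si:dkey-269i1.4 (0.88) and, more loosely, ctslb (0.56), whereas ctsl.1 had an r of -0.11.

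RefSeq lists 7 further genes on chromosome 12 with a symbol that begins with ctslb or with the synonym ctsl, 6 of them measured and all 6 in the run with ctslb. This set was chosen after the values were seen. The genes lie close together and may share sequence. The paper counted reads with HTSeq at default settings and an alignment cutoff of a10. How this treated reads that match several of these genes or ctslb was not tested. By limma 0 of 6 were called at any concentration, where 0% to 2.48% of all genes were, with a smallest adjusted p-value of 0.46. The trend called 0 of 6, beside 4.95% of all genes. The Log2FC of the 6 at 50 µM was between -0.25 (zgc:174855) and 0.14 (zgc:174154). Their r with he1.1, group means removed, ran from 0.17 (zgc:174154) to 0.88 (si:dkey-269i1.4), and with ctsl.1 from -0.04 to 0.13.

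Among relatives of the enzymes, 1 of 8 measured astacin genes was higher at 50 µM, beside 1.45% of all genes: bmp1a, a procollagen processing protease (Log2FC 0.46, SE 0.07, adjusted p-value 0.00013). Its mean normalized count was 737 in the control and 1049 at 50 µM. npsn, an astacin protease of neutrophils, had a Log2FC of -0.13 (adjusted p-value 0.49). The median of the 8 was 0.03. By the trend 2 of 8 rose, bmp1a and the meprin gene mep1a.1, beside 2.61% of all genes. mep1a.1 had a mean of 4.08 normalized counts and an adjusted p-value of 0.044. That call was lost without control replicate 1 (0.137) and without many other single pools. It was also lost with quantile scaling (0.072) and with the replicate number as a block (0.056). Without control replicate 2, 8 µM replicate 4 and 50 µM replicate 2 together the adjusted p-value was 0.051. The highest among its alternatives was 0.264.

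Of 19 cathepsin and cathepsin inhibitor genes, 0 were called at 50 µM by limma, and 3 had an unadjusted p under 0.05, about the share over all genes (15.2%). ctsla, another cathepsin L gene, had a Log2FC of 0.34 (adjusted p-value 0.11), and ctss1 had the lowest, -0.13. By the trend 1 of 19, ctss2.1, a cathepsin S gene, rose by 0.050 per step (adjusted p-value 0.0041), beside 2.61% of all genes. Without the 50 µM pools the trend of ctss2.1 no longer passed (adjusted p-value 0.056). Of 25 tetraspanins and 21 Krüppel-like factors 0 were called at 50 µM or by the trend, with 3 and 1 at an unadjusted p under 0.05 at 50 µM and 7 and 4 by the trend. Over all genes these shares were 15.2% and 16.7%. The Log2FC at 50 µM ran from -0.24 (tspan4a) to 0.22 (tspan34b) among the tetraspanins, and from -0.33 (klf5a) to 0.15 (klf3) among the Krüppel-like factors.

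Of 40 genes of the unfolded protein response, the pathway of xbp1, few were called, and in both directions. At 50 µM 1 of 40 was called, near the share over all genes (2.48% called, 1.02% lower). It was eif2ak3, the gene of the stress kinase PERK (Log2FC -0.29, SE 0.08, adjusted p-value 0.035). That call was lost without control replicate 1 or 3 or 50 µM replicate 1 or 3 (adjusted p-value up to 0.17). pdia6, a disulfide isomerase, was the 1 of 40 called at 8 µM, where it was lower (Log2FC -0.33, adjusted p-value 0.031), as were 0.0793% of all genes. The highest Log2FC at 50 µM was 0.23, for the transcription factor gene atf4a (adjusted p-value 0.054). At 50 µM 10 of 40 had an unadjusted p under 0.05, beside 15.2% of all genes. By the trend 2 rose, the chaperone genes dnajb11 and hyou1 (0.027 and 0.023 per step), and 2 fell, eif2ak3 and pdia6 (-0.044 and -0.041), beside 2.61% and 2.34% of all genes. Without the 50 µM pools the trends of dnajb11 and hyou1 no longer passed (adjusted p-values 0.077 and 0.083). That of pdia6 was lost without 20 and 50 µM (0.21). Of 46 genes of the secretory machinery 0 were called at 50 µM, with 10 at an unadjusted p under 0.05, beside 15.2% of all genes. Their Log2FC ran from -0.35 (sec23a, adjusted p-value 0.075) to 0.20 (sec63, 0.18). By the trend 1 of 46 fell, near the 2.34% of all genes: sec23b, which encodes a coat protein of vesicles leaving the endoplasmic reticulum (-0.060 per step, adjusted p-value 0.0033). Without the 50 µM pools the trend of sec23b no longer passed (adjusted p-value 0.068).

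Of 20 genes that specify the gland and the prechordal plate, 1 was higher at 50 µM, beside 1.45% of all genes. It was frzb, a secreted Wnt antagonist (Log2FC 0.43, SE 0.07, adjusted p-value 0.00036). At 20 µM frzb was also higher (0.31, adjusted p-value 0.046), as were 0.388% of all genes. prdm1a, a transcription factor of the polster, had a Log2FC of -0.17 (adjusted p-value 0.17). agr1 had the lowest value, -0.25 (adjusted p-value 0.14). RNA came from whole larvae, so these are not values of the gland. Of 9 measured genes of hormones and receptors studied in the hatching of fishes, 1 fell at 50 µM, beside 1.02% of all genes: prl, which encodes the pituitary hormone prolactin. Its mean normalized count was 29.0 ± 2.51 (SD, n = 4) in the control and 12.9 ± 4.28 at 50 µM, with a Log2FC of -0.35 (SE 0.07, adjusted p-value 0.0040). It was also lower at 20 µM (-0.31, adjusted p-value 0.029), as were 0.198% of all genes. The highest of the 9 at 50 µM was tshba, a thyrotropin subunit gene (0.08, adjusted p-value 0.72).

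**Figure D4:**
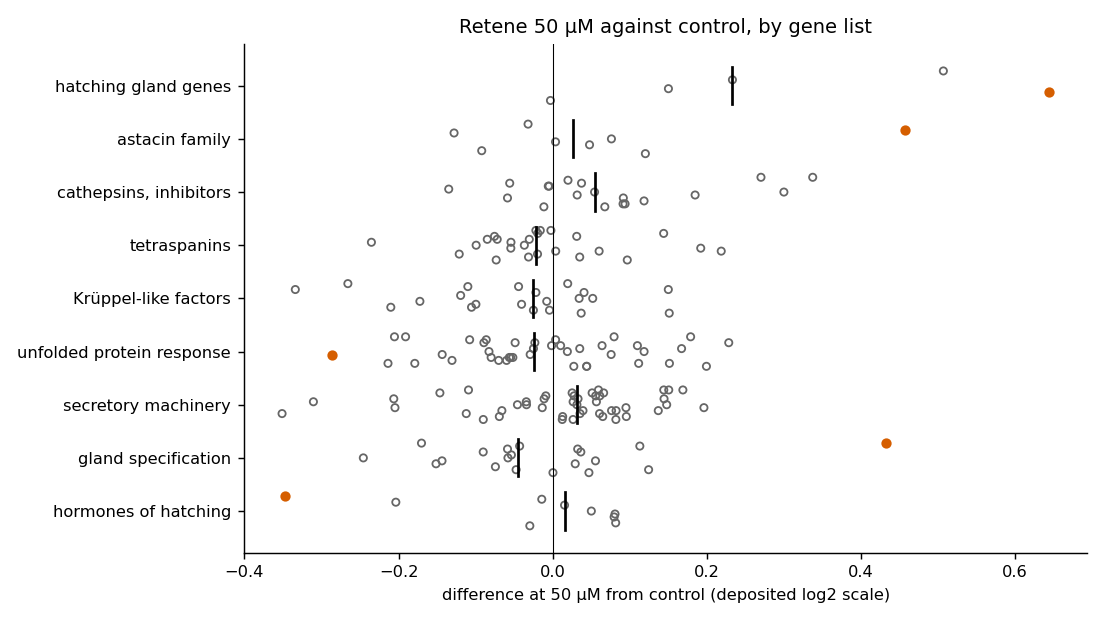
Difference at 50 µM from the control on the deposited log2 scale (x axis) for the 5 genes chosen by name (labeled hatching gland genes) and 8 gene lists (y axis). Among the 5, ctsl.1 has no gland synonym. Circles are genes, filled where the adjusted p-value was under 0.05 (ctsl.1, bmp1a, eif2ak3, frzb and prl). Black bars are list medians, 0.23 for the 5 genes chosen by name.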

How the data were processed

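mRNA of 32 pools of whole larvae was sequenced. The authors aligned reads to GRCz11 with STAR, counted them per gene with HTSeq, removed genes with 0 reads in many pools and normalized with DESeq2, as the paper and the submitters' processing notes state. Values were deposited in log2 units, after a variance-stabilizing transformation. Its closed form was reversed here, and 100.0% of values became whole reads within 0.01 reads after multiplication by 1 size factor per pool (0.940 to 1.08). These recovered reads served for levels only.

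Differences were tested on the deposited log2 values with limma 3.58.1 in R 4.3.3, over all 22686 genes and 32 pools, with 1 mean per group, moderation that follows the mean, and p-values adjusted by Benjamini-Hochberg for each concentration on its own (threshold 0.05). A linear trend used the rank of the concentration, and a moderated F test the 7 contrasts. No count test was run, since the deposited unit is log2. Relations between genes used 100000 permutations (NumPy 2.4.6, Python 3.11.15). Scripts were tested on simulated data. Names came from RefSeq (GRCz12tu), matched for 21030 genes, and no coordinates or sequences are given. Named genes are the 5 measured genes chosen by name, cyp1a, and up to 5 called genes of each list. The lowest and highest at 50 µM of each gene list described and the 15 most alike in pattern are also named. Genes named for a trend or as examples beyond that were chosen after their values were seen. The members and lists were chosen with earlier results of these data known.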

Additional observations from a re-analysis of the deposited data

Results flagged for a closer look

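Among the 40 groups of 4 pools formed by the 5 genes, 7 held a pool far from the other 3. Chance flags about 1 in 20. For ctsl.1, replicate 4 at 1.28 µM had 29.4 normalized counts beside 13.1 to 14 in the others, and replicate 2 at 3.2 µM had 15.2 beside 26.9 to 28.4. For ctslb, control replicate 2 had 72.4 beside 51.3 to 54.5, and replicate 2 at 0.205 µM had 35.3 beside 88.2 to 91.2. For xbp1, replicate 4 at 0.205 µM had 3046 beside 3278 to 3310, replicate 1 at 1.28 µM had 3466 beside 3164 to 3182, and replicate 2 at 50 µM had 3056 beside 3342 to 3388.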

How the results depend on the processing

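The calls of ctsl.1 at 20 and 50 µM held under every alternative run. These were other log scales, a filter at a mean of 10 normalized counts, total-read and quantile scaling, and no mean-variance trend. Sample weights, the 2 groups alone and adjustment over all 7 concentrations were also run. Single pools were left out, and 3 pools together (control replicate 2, 8 µM replicate 4 and 50 µM replicate 2). These 3 pools were set by name, and no criterion for an outlying pool was computed here. With the replicate number as a block, 523 genes were called at 50 µM in place of 562, and no call of the 5 genes chosen by name changed. The median r between pools was 0.002 for the same replicate number and 0.005 for other numbers. Of 28 same-number correlations with the control 9 exceeded 0.1, and 8 of 32 pools correlated best with their own number. These values do not show whether pools shared a clutch or plate. Of the 5 genes chosen by name, the F test called 1, ctsl.1, beside 1.86% of all genes. It called 2, he1.1 being added, without those 3 pools (adjusted p-value 0.047) and without 8 µM replicate 4 alone (0.030). The share of all genes called by the F test in these settings was not computed. The count ranged from 1 to 2 over single pools left out. The count by the trend was 2, where 1123 of all genes were called. It became 1 without 50 µM and 0 without 20 and 50 µM, 2 settings chosen after seeing the data that use fewer pools. Over all genes, 436 were called without 50 µM. Without 20 and 50 µM, 176 genes were called in all, and the trend of krt4 turned from -0.042 to 0.0044 per step. At 50 µM, eif2ak3, prl, krt4, ca2 and mpx were no longer called with the 2 groups alone (adjusted p-values 0.16, 0.067, 0.105, 0.17 and 0.087); the cause was not tested. ca2 was also lost without control replicate 2 or 50 µM replicate 4 (0.0996 and 0.113). With 7 to 63 reads per pool, depth limits the precision for ctsl.1.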
